A study of Mus musculus with 2 samples.

Results

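Klra17, Klrb1b, Klrd1, Klrk1, Clec1a, Clec1b, Gabarapl1, Apold1 and Hebp1 are 9 genes of mouse chromosome 6 that lie near Clec7a, the gene of the β-glucan receptor Dectin-1. They are 9 of the 32285 genes of the count tables and were selected on their UMI (unique molecular identifier) levels and their shares of positive cells, which had been seen to differ between wild-type (WT) and Clec7a-/- (KO) cells. Their ratios between the libraries therefore describe the choice, and no test of them was made. The deleted allele had been backcrossed to C57BL/6J for 9 generations, and the question was whether neighbours of Clec7a differ as DNA carried along with the deleted allele could make them differ. The count tables hold no genotype, so the origin of any difference was not tested, and Clec7a itself was not analysed here, so the KO label was not checked against the deleted gene.

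Both groups were mice labelled C57BL6/J and 26 weeks old that had received AOM (azoxymethane, a colon carcinogen) and 3 cycles of 1% DSS (dextran sulfate sodium, which injures the colonic epithelium). Sorted CD11b+ and CD11c+ cells from their colorectal polyps were sequenced 16 weeks after AOM, with 5 WT mice pooled in 1 library and 4 Clec7a-/- mice pooled in the other. The paper's methods give AOM at 6 to 7 weeks of age, which with these 16 weeks falls short of the labelled 26 weeks. The controls were C57BL/6J mice kept in the same animal room as the Clec7a-/- mice. With 1 library per genotype, every difference below compares 2 libraries, and the 95% intervals cover counting error only, not the spread between mice.

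Most of these genes belong to the natural killer gene complex and the adjoining Dectin-1 cluster, where C-type lectin-like receptors are encoded side by side. Receptors of these families either carry inhibitory motifs that recruit phosphatases or pair with adaptors that recruit kinases, and although they are best known from natural killer cells, several are also found on macrophages, dendritic cells and granulocytes. The Klra and Klrb1 families vary between mouse strains in gene content and sequence, and hold closely similar copies, so reads of Klra17 and Klrb1b may be shared with relatives and their counts are uncertain to that extent. Gabarapl1, Apold1 and Hebp1 are unrelated genes that share only the chromosomal neighbourhood.

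Levels are given as CPM, the UMIs of a gene per 1000000 UMIs of the same cells. In all, 3467 WT and 3080 KO barcodes were deposited, and 2696 and 1999 passed the filter on detected genes and mitochondrial UMIs, with 12283285 and 7559096 UMIs and medians of 3413 and 2671 UMIs per cell. The KO library was thus the shallower one, and 17 barcode sequences occurred in both libraries. Clusters were named from marker genes as neutrophil-like (552 WT and 363 KO cells, expressing S100a8 and Retnlg), monocyte-like (647 and 462, Sdc1 and Fn1), macrophage-like (519 and 297, C1qa and Apoe), dendritic-cell-like (361 and 569, Ccr7 and Tbc1d4) and T-cell-like (64 and 117, Cd3e and Trac). Monocyte-like cells came from cluster 0 (394 WT and 271 KO cells), which expressed Ly6c2 and Chil3, and from cluster 3 (253 and 191). Cluster 3 expressed Ccl24 and Mmp19, and Ly6c2 was not among the markers that named it. Neutrophil-like cells came mostly from cluster 2 in the WT library (459 cells) and from cluster 5 in the KO library (320 cells), and cluster 5 had no neutrophil marker among its top 10 genes by fold. Dendritic-cell-like cells made up 13.4% of WT and 28.5% of KO cells, so ratios over all cells also carry this difference in makeup. The markers behind the sort were present, with Itgam (CD11b) UMIs in 63.7% of WT and 42.8% of KO cells and Itgax (CD11c) UMIs in 68.4% and 57.5%.

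In the GENCODE M21 annotation of GRCm38, Clec7a lies at chr6:129461591-129472779 on the minus strand. The nearest of the 9 genes are Clec1a (chr6:129424772-129452000, start 20.8 kb from that of Clec7a), Gabarapl1 (chr6:129533160-129542346, 60.4 kb) and Clec1b (chr6:129397297-129409335, 75.5 kb). Klrd1 (chr6:129591782-129598775) and Klrk1 (chr6:129610323-129623864) start 119.0 and 151.1 kb away, Klra17 (chr6:129831154-129876672) 403.9 kb away and Klrb1b (chr6:128813706-128826331) 646.4 kb away on the other side. Apold1 (chr6:134981718-134986836) and Hebp1 (chr6:135137522-135198022) stand apart from these at 5.51 and 5.73 Mb. All 9 are protein-coding. Another annotated gene overlaps 5 of them, and for 4 at least one such gene is on the same strand. Clec9a shares 474 bases with Clec1b, so that reads in the shared part could not be assigned to one gene with certainty. Gm44511 covers 12610 bases of Klrb1b but is not among the genes of the count tables. Its reads there, if any, could only be counted as Klrb1b. Hebp1 is also overlapped by the antisense gene Gm19434 (42 WT and 17 KO UMIs), and whether the counting used strand is not given in the sources used here.

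The 250 bases before the RefSeq start of Klra17, Apold1, Hebp1 and Klrb1b are given here, since of the 9 genes these 4 had the largest differences over all cells among those with at least 100 UMIs. They are the reference sequence of GRCm38.p6, which says nothing of the sequence carried by the mice, and each is written 5′ to 3′ along its gene. The RefSeq starts of Hebp1, Apold1 and Klrb1b lie inside the GENCODE spans given above, so the distances from Clec7a refer to other starts. Capitals mark the TATA box (TATAAA), the CCAAT box (CCAAT) and the core of PU.1 sites (GAGGAA), on either strand.
Klra17, chr6:129876673-129876922, - strand: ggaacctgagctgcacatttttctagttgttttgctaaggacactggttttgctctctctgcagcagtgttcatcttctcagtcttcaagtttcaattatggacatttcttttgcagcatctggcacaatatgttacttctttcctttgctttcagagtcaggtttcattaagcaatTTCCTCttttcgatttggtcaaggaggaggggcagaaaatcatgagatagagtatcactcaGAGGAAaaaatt
Apold1, chr6:134981751-134982000, + strand: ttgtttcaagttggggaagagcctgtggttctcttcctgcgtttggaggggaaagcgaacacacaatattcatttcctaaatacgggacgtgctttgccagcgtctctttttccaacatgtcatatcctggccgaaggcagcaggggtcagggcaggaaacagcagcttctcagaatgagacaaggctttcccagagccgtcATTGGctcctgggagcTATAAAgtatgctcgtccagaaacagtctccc
Hebp1, chr6:135168216-135168465, - strand: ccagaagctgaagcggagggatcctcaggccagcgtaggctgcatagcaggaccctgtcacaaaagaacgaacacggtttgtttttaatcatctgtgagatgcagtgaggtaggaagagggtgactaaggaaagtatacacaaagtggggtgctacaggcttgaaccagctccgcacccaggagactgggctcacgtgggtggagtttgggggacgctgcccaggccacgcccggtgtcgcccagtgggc
Klrb1b, chr6:128826316-128826565, - strand: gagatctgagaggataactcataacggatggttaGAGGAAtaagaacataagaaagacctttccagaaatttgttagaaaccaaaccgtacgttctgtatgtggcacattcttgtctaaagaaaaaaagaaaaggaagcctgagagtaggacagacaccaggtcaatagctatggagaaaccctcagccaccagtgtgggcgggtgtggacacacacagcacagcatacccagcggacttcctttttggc

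RefSeq promoters were matched for 7 of the 9 genes. TATAAA lay 32 bases and the reverse complement of CCAAT 48 bases before the start of Apold1, and GAGGAA or its reverse complement lay 12 and 73 bases before the start of Klra17 and 216 bases before that of Klrb1b. None of the 3 motifs was in the stretch shown for Hebp1, whose GC content of 57.6% compared with 39.6% for Klra17. Over the same 250 bases of all 32851 promoters, TATAAA was present in 12.4%, CCAAT in 33.8% and GAGGAA in 23.3%, and each was present in 2 of the 7 matched genes. The AP-1 motif TGANTCA, present in 6.75% of all promoters, was in none of the 7. The marked motifs do not overlap one another, and a match is a description of letters only.

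Klra17 encodes Ly49Q, an inhibitory receptor for the class I molecule H-2K that, unlike most Ly49 receptors, is found on myeloid cells and plasmacytoid dendritic cells. The WT library held 120 Klra17 UMIs, or 9.77 CPM (8.10 to 11.7), and the KO library 445, or 58.9 CPM (53.5 to 64.6). The KO level was 6.0-fold higher (4.92 to 7.43), and UMIs were seen in 94 of 2696 WT cells (3.49%) and in 251 of 1999 KO cells (12.6%).

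The higher Klra17 level was found in each of the 4 myeloid classes, and the intervals of the 2 libraries did not overlap in any of them. Neutrophil-like cells had 14.8 CPM in WT and 105.3 in KO (log2 ratio 2.79, 2.09 to 3.61). Monocyte-like cells had 3.48 and 26.7 CPM (2.85, 1.82 to 4.25), on 8 and 39 UMIs. Of these, 6 and 34 were in cluster 3, while cluster 0 held 2 and 5 (1.84, -0.47 to 5.54), within counting error. In macrophage-like cells the levels were 10.5 and 46.7 CPM (2.13, 1.62 to 2.70), and in dendritic-cell-like cells 13 and 85.4 (2.70, 2.11 to 3.39). The dendritic-cell-like clusters differed, as cluster 7 held 23 of the 24 WT UMIs (46.6 and 187.5 CPM, 1.99, 1.35 to 2.72). Cluster 6 had 1 WT and 115 KO UMIs (5.77, 3.74 to 11.6), and cluster 9 had 0 and 10. The T-cell-like class held only 1 WT and 3 KO UMIs. Each cell with at least 1000 UMIs was also thinned to 1000, and shallower cells were left out of the thinned values. Among neutrophil-like cells this left out 9 of 552 in WT but 154 of 363 in KO. After thinning, the WT shares of Klra17-positive cells in the myeloid classes (0.165% to 1.21%) did not exceed the 1.82% of T-cell-like cells (1 of 55, 0.046% to 9.72%). At this depth they could therefore not be told from background. Unthinned, 9 of 29 positive WT macrophage-like cells had 2 or more UMIs. The KO shares were 7.18% of neutrophil-like, 2.09% of monocyte-like, 2.53% of macrophage-like and 8.01% of dendritic-cell-like cells, beside 1.14% of T-cell-like cells (1 of 88, 0.0288% to 6.17%). The monocyte-like and macrophage-like shares lay inside that interval, and the other two above it. The median depths of the T-cell-like class were 2083 and 1540 UMIs per cell, and the thinning brought the log2 ratio in macrophage-like cells to 0.96.

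**Figure D1:**
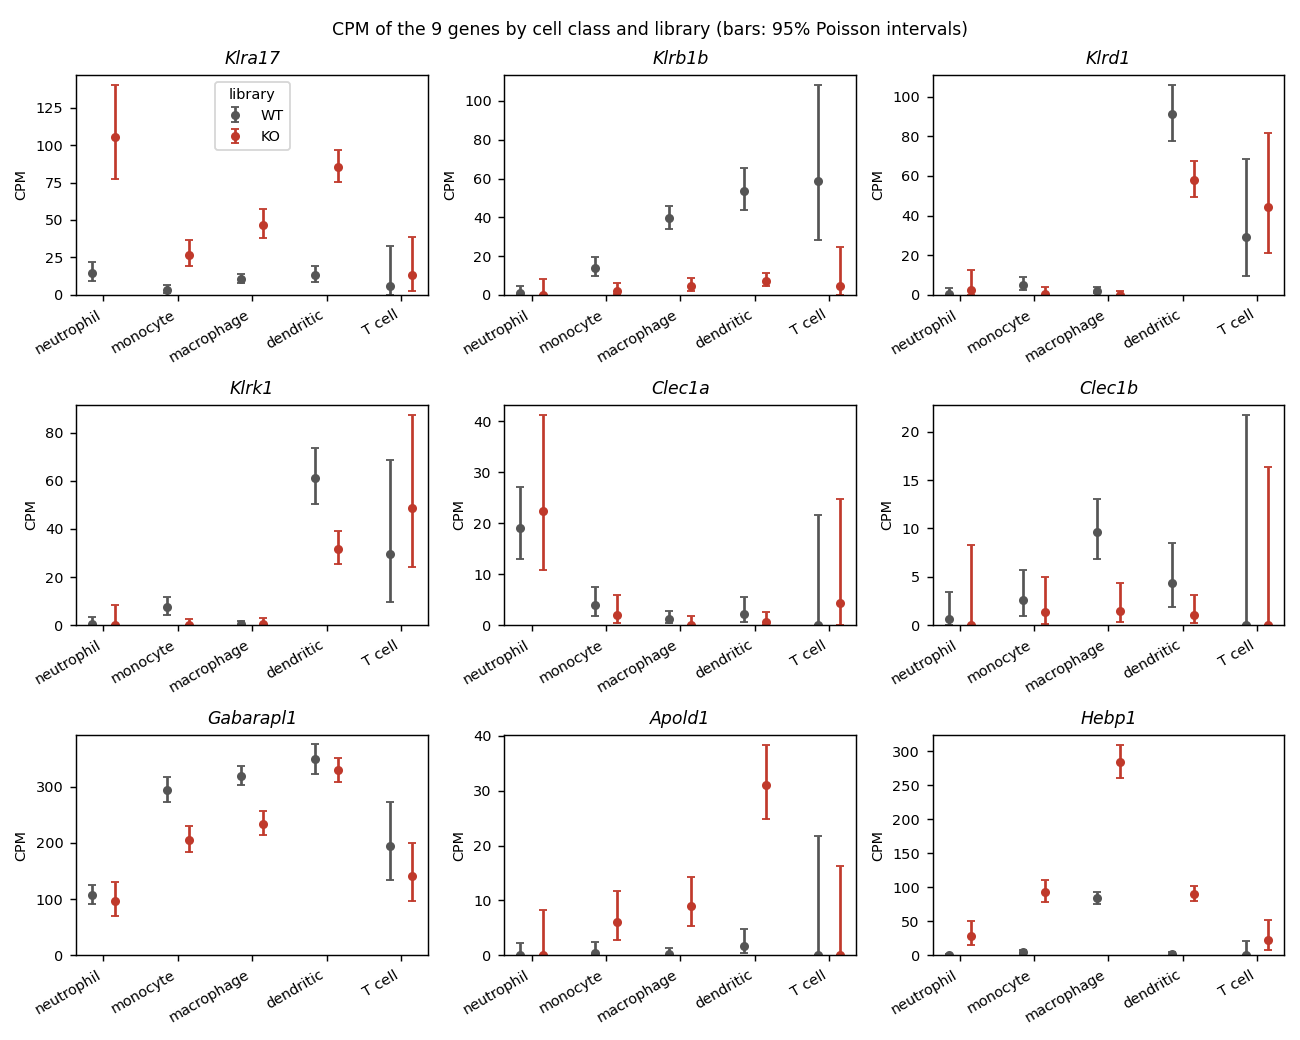
Level in CPM (linear axes) of each of the 9 genes in 5 cell classes for the WT (grey) and KO (red) libraries, with 95% Poisson intervals that cover counting error only. Klra17 and Hebp1 are higher in KO in all 4 myeloid classes, Klrb1b is lower in macrophage-like (39.5 against 4.52) and dendritic-cell-like cells (53.6 against 7.41), and Gabarapl1 differs little in dendritic-cell-like cells (348.8 against 329.4).

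Klrb1b encodes NKR-P1B, an inhibitory receptor whose ligand Clr-b is the product of Clec2d, a neighbour on chromosome 6. The opposite difference was found here, with 325 UMIs in WT (26.5 CPM, 23.7 to 29.5) and 35 in KO (4.63, 3.23 to 6.44). This amounts to a level 5.66-fold higher in WT (4.03 to 8.35). Positive cells numbered 200 in WT (7.42%) and 31 in KO (1.55%), and 72 of the WT cells but 4 of the KO cells had 2 or more UMIs.

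Of the WT Klrb1b UMIs, 50.8% were in macrophage-like cells, which had 39.5 CPM in WT and 4.52 in KO (log2 ratio -3.08, -4.28 to -2.17, but -1.64 with cells thinned to 1000 UMIs). Dendritic-cell-like cells had 53.6 and 7.41 CPM (-2.82, -3.61 to -2.16), and monocyte-like cells 13.9 and 2.05 (-2.61, -5.11 to -1.09) with only 3 KO UMIs. Within the monocyte-like class, cluster 3 held 32 WT and 2 KO UMIs, and cluster 0, which expressed Ly6c2, held 0 and 1. The T-cell-like class had 10 WT UMIs and 1 KO UMI. At 58.8 CPM in WT, this class cannot serve as one that lacks Klrb1b. It also carried the natural killer markers at a sum of 1706 CPM in WT and 1126 in KO. Most of that sum came from Gzma (876.7 and 230.5) and Gzmb (623.7 and 784.5), while Ncr1 had 23.5 and 0 and Eomes had 0 in both libraries. Among macrophage-like cells thinned to 1000 UMIs, Klrb1b was found in 3.44% of WT (2.02% to 5.45%) and 1.08% of KO cells (0.224% to 3.13%). These intervals overlapped. Among dendritic-cell-like cells it was found in 5.97% (3.68% to 9.07%) and 0.559% (0.115% to 1.62%), where they did not. In neutrophil-like WT cells it was found in 0 of 543, which allows a share of up to 0.552%.

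Klrd1 encodes CD94, which pairs with NKG2 proteins (Klrc1, Klrc2) to bind the class Ib molecule Qa-1 (H2-T23), and Klrk1 encodes NKG2D, the receptor for the stress ligands of the Raet1, H60 and Ulbp1 families. Their UMIs sat mainly in dendritic-cell-like cells, with 82.4% of the WT and 93.2% of the KO Klrd1 UMIs and 75.8% and 88.2% of the Klrk1 UMIs. Over all cells Klrd1 had 204 UMIs in WT (16.6 CPM, 14.4 to 19.1) and 176 in KO (23.3, 20.0 to 27.0), and Klrk1 had 149 (12.1, 10.3 to 14.2) and 102 (13.5, 11 to 16.4). Thus neither gene differed by 2-fold over all cells, the Klrk1 intervals overlapped, and the direction was not stable (log2 ratio of Klrd1 0.49, but -0.03 with cells thinned to 1000 UMIs, and of Klrk1 0.15, but -0.15 as a mean over cells).

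Within dendritic-cell-like cells both genes were lower in KO. Klrd1 had 91.0 CPM in WT (168 UMIs) and 57.9 in KO (164 UMIs), a log2 ratio of -0.65 (-0.97 to -0.33). Klrk1 had 61.2 (113 UMIs) and 31.8 CPM (90 UMIs), a log2 ratio of -0.94 (-1.36 to -0.53). The sign over all cells was thus opposite to that within the class for both genes, beside the larger share of dendritic-cell-like cells in the KO library. Thinning to 1000 UMIs gave Klrd1 in 10.7% of WT and 3.91% of KO dendritic-cell-like cells (log2 ratio of the UMIs -1.33), whereas neutrophil-like cells gave 0 of 543 and 0 of 209, which allow up to 0.552% and 1.44%.

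The dendritic-cell-like clusters were not alike. In cluster 7, which had Wnt11, Arap2 and Zbtb46 among its leading genes, Klrk1 had 83.1 CPM in WT and 12.8 in KO (log2 ratio -2.61, -4.00 to -1.58), and Klrd1 had 164.2 and 72.1 (-1.18, -1.75 to -0.64). In cluster 9, which expressed Xcr1 and Itgae, Klrd1 had 78.7 and 82.5 CPM (0.07, -0.45 to 0.60) and Klrk1 89.98 and 48.07 (-0.90, -1.47 to -0.34). In cluster 6, which expressed Fscn1 and Il12b, Klrk1 had 21.9 and 26.2 (0.25, -0.67 to 1.24) and Klrd1 52.0 and 25.3 (-1.02, -1.80 to -0.30). Hence cluster 7 had the lowest KO level of Klrk1 relative to WT, and the intervals of clusters 6 and 7 did not overlap, although the difference between clusters was not tested.

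**Figure D2:**
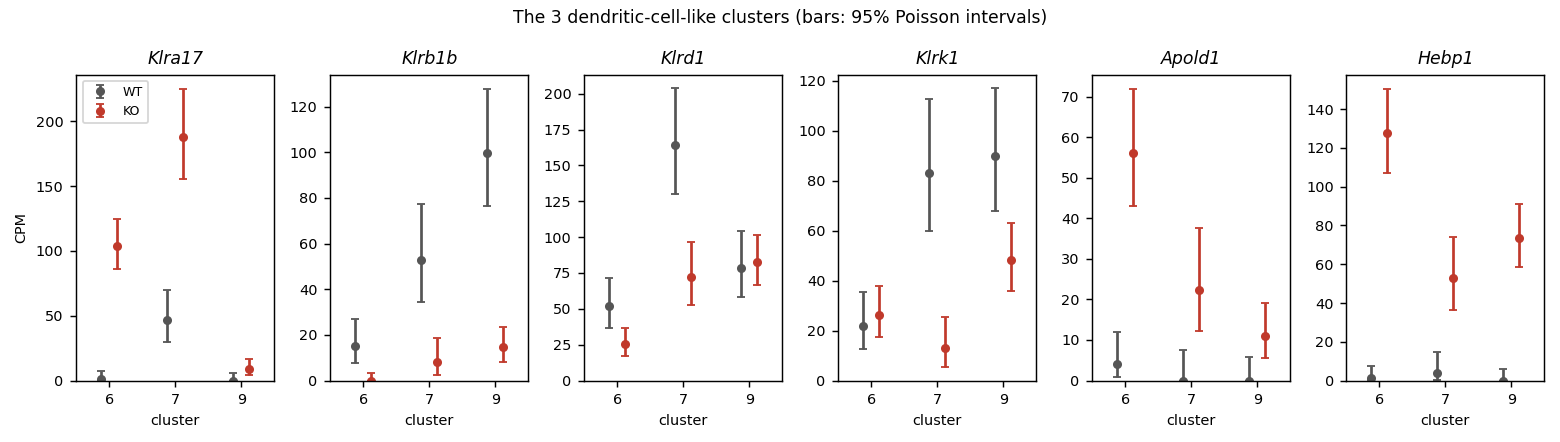
Level in CPM (linear axes) of 6 of the genes in the dendritic-cell-like clusters 6, 7 and 9 for the WT (grey) and KO (red) libraries, with 95% Poisson intervals. Klra17, Apold1 and Hebp1 are higher in KO in each cluster, Klrb1b is lower in each, and Klrk1 is 83.1 against 12.8 in cluster 7 but 21.9 against 26.2 in cluster 6.

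Of the Klrd1-positive cells, 3 of 114 in WT and 3 of 95 in KO had UMIs of 2 or more of 8 natural killer markers, and of the Klrk1-positive cells 0 of 100 and 2 of 74. UMIs of 2 or more T-cell markers were in 8 and 10 of the Klrd1-positive and in 7 and 7 of the Klrk1-positive cells. Only Gzma and Gzmb of the natural killer markers reached 100 UMIs, so few such cells could be seen at this depth. Klrd1 and Klrk1 occurred together in 40 WT and 24 KO cells. In monocyte-like cells Klrk1 had 17 WT UMIs and 0 KO UMIs, which is at least 3.60-fold lower against the limit of 3 UMIs that a count of 0 allows, and the exact interval, which also holds the counting error of the 17 UMIs, starts at 2.62-fold. Cluster 3 held 16 of these WT UMIs and cluster 0 held 1.

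Clec1a encodes CLEC-1, a lectin-like receptor of the Dectin-1 cluster, and Clec1b encodes CLEC-2, the receptor for podoplanin (Pdpn), which signals through Syk and is best known from platelets. Both had too few UMIs for the minimum of 100 over all cells that was set for a 2-fold call. Clec1a had 69 UMIs in WT (5.62 CPM, 4.37 to 7.11) and 18 in KO (2.38, 1.41 to 3.76), and Clec1b 66 (5.37, 4.16 to 6.84) and 9 (1.19, 0.544 to 2.26). Both were thus lower in KO over all cells, beyond counting error.

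Clec1a UMIs were most frequent in neutrophil-like cells, and there the levels were 19.1 CPM in WT (31 UMIs) and 22.4 in KO (10 UMIs), with a log2 ratio of 0.23 (-0.96 to 1.30). The lower level over all cells was therefore not found in the class that held the largest share of its UMIs (44.9% in WT and 55.6% in KO), where the sign changed with the processing (from -0.38 with 500 to 6000 detected genes to 0.71 as a mean over cells). This class made up 20.5% of WT and 18.2% of KO cells, and its median depth was 2723 UMIs in WT and 1085 in KO. Levels over all cells weigh each class by its UMIs. By that measure the neutrophil-like class held 1623184 of 12283285 WT UMIs but 446285 of 7559096 KO UMIs. A mixed cluster with markers of neutrophils and monocytes, 352 WT and 87 KO cells, held another 24.6% of the WT Clec1a UMIs. Its cells had 1689191 UMIs in WT and 267345 in KO. How far this makeup gave the lower Clec1a level over all cells was not tested.

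Clec1b was found chiefly in macrophage-like cells, at 9.58 CPM in WT (40 UMIs) and 1.51 in KO (3 UMIs), with a log2 ratio of -2.55 (-5.01 to -1.02). Of the platelet markers, Gp9 was at 0 in both libraries, Gp1ba and Gp1bb had 1 UMI each, and the summed level of the 6 markers in macrophage-like cells was 188.6 CPM in WT and 110.5 in KO, of which Ppbp alone gave 183.1 and 107.5. Itga2b was the 1 of the 3 markers with 100 UMIs that differed by 2-fold over all cells (1.30, higher in KO). Their part in the Clec1b difference was not tested.

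Gabarapl1, a ubiquitin-like protein of the ATG8 family that acts in autophagosome formation, was the most widely detected of the 9 genes, with UMIs in 50.2% of WT and 43.3% of KO cells. It had 3295 UMIs in WT (268.3 CPM, 259.2 to 277.6) and 1875 in KO (248.0, 236.9 to 259.5). The log2 ratio of -0.11 (-0.20 to -0.03) lay beyond counting error but was small. Monocyte-like cells had 294.0 and 205.9 CPM (-0.51, -0.72 to -0.32) and macrophage-like cells 319.9 and 234.5 (-0.45, -0.60 to -0.29). In dendritic-cell-like cells the levels were 348.8 and 329.4 (-0.08, -0.23 to 0.06), in neutrophil-like cells 107.2 and 96.4 (-0.15, -0.67 to 0.33), and in T-cell-like cells 194.2 and 141.8 (-0.45, -1.20 to 0.29), all within counting error.

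Apold1 encodes apolipoprotein L domain containing 1, an early-response protein known from the endothelium. It was nearly absent from the WT library, with 5 UMIs in 4 cells (0.407 CPM, 0.132 to 0.95), and had 116 UMIs in 64 cells of the KO library (15.3 CPM, 12.7 to 18.4). The ratio was 33.7-fold (15.7 to 118.3), and a single KO cell held up to 11 UMIs. Most KO UMIs were in dendritic-cell-like cells, which had 3 UMIs in WT (1.62 CPM) and 88 in KO (31.1 CPM), a log2 ratio of 4.09 (2.66 to 6.56). Macrophage-like cells had 1 and 18 UMIs (4.52, 2.57 to 10.6), monocyte-like cells 1 and 9 (3.20, 0.97 to 9.28), and neutrophil-like and T-cell-like cells none in either library, which allows up to 1.85 and 6.72 CPM in neutrophil-like cells.

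Within the dendritic-cell-like class, cluster 6 had an Apold1 level of 56.1 CPM in KO (62 UMIs) against 4.11 in WT (3 UMIs). Cluster 7 had 22.4 and cluster 9 had 10.9 CPM in KO, with no WT UMI in either. Of the endothelial markers, Emcn was at 0 in both libraries and Cdh5 had 3 UMIs in WT and 0 in KO, and the 6 markers summed to 30.9 CPM in WT and 31.1 in KO dendritic-cell-like cells.

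Hebp1 encodes a heme-binding protein from which a chemoattractant peptide for formyl peptide receptors (Fpr family) is cleaved. It had 398 UMIs in WT (32.4 CPM, 29.3 to 35.7) and 1057 in KO (139.8, 131.5 to 148.5), a level 4.31-fold higher in KO (3.84 to 4.86). Cells with a UMI numbered 259 in WT (9.61%) and 479 in KO (24%).

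The cells that expressed Hebp1 also differed. In WT, 87.7% of its UMIs were in macrophage-like cells, and no other class held more than 19 UMIs. In KO, macrophage-like cells held 53.5%, dendritic-cell-like cells 24.1% and monocyte-like cells 12.96%. Macrophage-like cells had 83.6 CPM in WT and 284.3 in KO (log2 ratio 1.76, 1.57 to 1.96), and both of their clusters had this difference (1.89 in cluster 1 and 1.65 in cluster 8). Dendritic-cell-like cells had 3 UMIs in WT (1.62 CPM) and 255 in KO (90.03), a log2 ratio of 5.62 (4.23 to 8.08). Monocyte-like cells had 4.35 and 93.7 CPM (4.35, 3.51 to 5.52), on 10 and 137 UMIs. Neutrophil-like cells had 0 UMIs in WT and 13 in KO, at least 15.8-fold higher against the limit of 3 UMIs, with an exact interval that starts at 11.1-fold. In cluster 5, which held most of the KO neutrophil-like cells, the UMIs were 0 and 9 and the bounds 1.66-fold and 1.09-fold. Each of the 13 positive KO neutrophil-like cells had 1 UMI. T-cell-like cells had 0 WT and 5 KO UMIs, or 22.2 CPM in KO (7.20 to 51.7). The 29.1 CPM of KO neutrophil-like cells lay inside that interval. No class was taken as lacking Hebp1, so these low levels were not held against a background. The proliferating cluster 13, which was given no class, held another 13 WT and 60 KO UMIs. In cells thinned to 1000 UMIs, Hebp1 was found in 9.11% of WT and 23.5% of KO macrophage-like cells and in 0 of 335 WT (up to 0.896%) and 6.70% of KO dendritic-cell-like cells.

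In dendritic-cell-like cells of the KO library, UMIs of Hebp1, Apold1 and Klra17 overlapped in part. Of all 569 such cells, 24.3% had a Hebp1 UMI, 18.1% a Klra17 UMI and 7.56% an Apold1 UMI. Of 138 Hebp1-positive cells, 17 (12.3%) had an Apold1 UMI and 25 (18.1%) a Klra17 UMI. Of 43 Apold1-positive cells, 17 (39.5%) had a Hebp1 UMI and 7 (16.3%) a Klra17 UMI, and of 103 Klra17-positive cells 25 (24.3%) had a Hebp1 UMI. The shares for Hebp1 with Klra17 were thus those of all such cells. Those for Hebp1 with Apold1 were higher, which was not tested. At this depth a cell without a UMI may still express the gene.

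**Figure D3:**
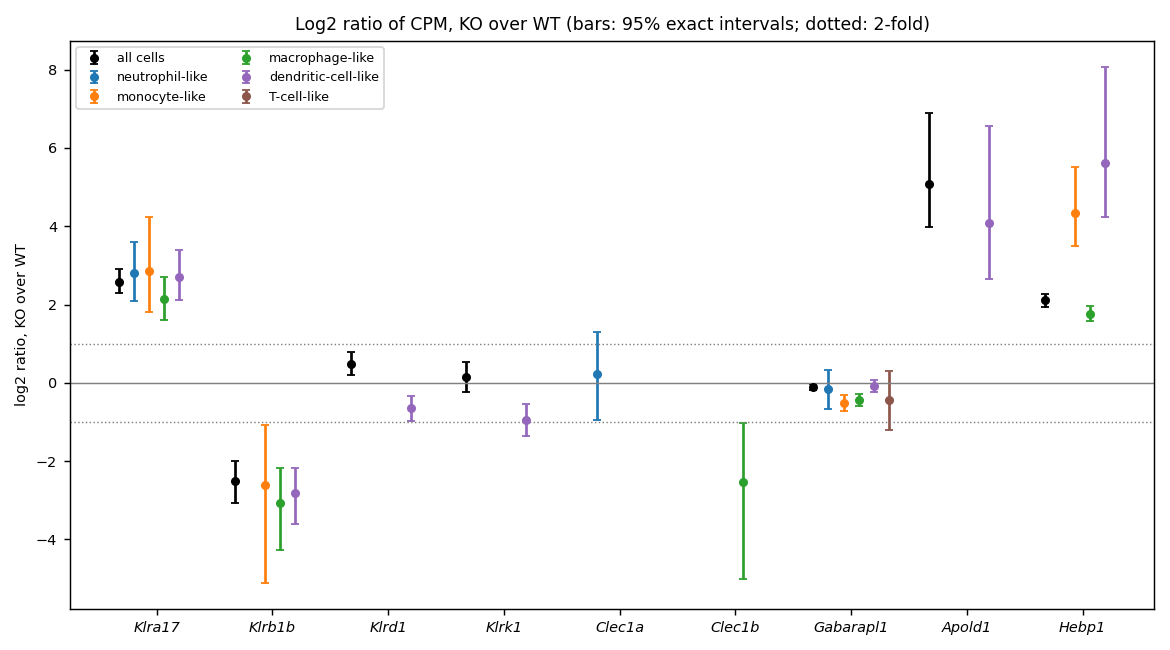
Log2 ratio of CPM values, KO over WT, for each gene over all cells (at least 100 UMIs) and in each class (at least 20 UMIs), with exact 95% intervals and dotted lines at 2-fold. Klra17, Apold1 and Hebp1 lie above and Klrb1b below the dotted lines wherever they are drawn, Gabarapl1 lies between them, and Klrd1 and Klrk1 are above 0 over all cells but below 0 in dendritic-cell-like cells.

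Over all cells, 7 of the 9 genes reached 100 UMIs and 4 of them differed by at least 2-fold, where 4.16% of the 8470 genes with 100 UMIs did so. Of these, 3 were higher in KO (2.42% of all genes) and 1 was lower (1.74%). The median log2 ratio of the 7 was 0.49 and that of all genes 0.13. With the minimum of 20 UMIs within a class, 4 of 5 of the genes passed 2-fold in macrophage-like cells (3.46% of all genes), 4 of 7 in dendritic-cell-like cells (4.91%), 3 of 4 in monocyte-like cells (4.11%), 1 of 3 in neutrophil-like cells (12.1%, or 5 of 7 beside 8.73% where classes were set by marker level) and 0 of 1 in T-cell-like cells (7.19%). Since the genes were chosen for such differences, nothing is read from these shares. By the size of the log2 ratio, Hebp1 ranked 1 and Apold1 3 among 8450 genes in dendritic-cell-like cells. Klrb1b ranked 15, Klra17 17, Klrk1 476, Klrd1 1115 and Gabarapl1 6797 there. Hebp1 ranked 2 among 7818 in monocyte-like cells and Klrb1b 9 among 9114 in macrophage-like cells. High ranks also follow from the choice of the genes, so nothing is read from them.

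Most partners of these genes were within 2-fold over all cells. Of 17 ligand, adaptor and pathway genes with at least 100 UMIs over all cells, 2 were lower by 2-fold in KO and none was higher, with a median log2 ratio of -0.24 against 0.13 for all genes. These 2 were Fpr1 (223.7 and 56.1 CPM, log2 ratio -1.99, -2.15 to -1.85) and Fpr2 (223.4 and 102.8, -1.12, -1.24 to -1.004), the formyl peptide receptors. Within classes the log2 ratio of Fpr2 was -0.43 in neutrophil-like, 0.10 in monocyte-like, 0.24 in macrophage-like and -2.02 in dendritic-cell-like cells, and that of Fpr1 was -0.94, -0.63, -0.68 and -2.42. Among these classes only dendritic-cell-like cells passed 2-fold, at low levels (Fpr1 21.7 and 3.88 CPM, Fpr2 33.6 and 8.12). Neutrophil-like cells had the highest levels of the 4 (Fpr1 1025 and 533.3, Fpr2 827.4 and 614.0). Both genes were among the top 10 by fold of the mixed cluster, which was 13.1% of WT and 4.35% of KO cells. How far this makeup gave the ratios over all cells was not tested. H2-K1, which encodes the ligand of Ly49Q, had 1748 and 1938 CPM (0.15, 0.12 to 0.18). Clec2d, the ligand gene of Klrb1b, had 50.8 and 54.2 CPM (0.09, -0.09 to 0.28), with 0.76 in macrophage-like cells. The autophagy receptor Sqstm1 had 4321 and 3654 CPM (-0.24, -0.26 to -0.22) and Gabarap, a relative of Gabarapl1, 1561 and 1248 (-0.32, -0.36 to -0.29).

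The other genes of the natural killer complex were mostly at low counts. Of 28 such genes in the tables, 6 were at 0 in both libraries and 3 had at least 100 UMIs, of which none differed by 2-fold. These were Klra2 (45.1 and 23.02 CPM, log2 ratio -0.97, -1.22 to -0.72), the activation marker Cd69 (26.1 and 29.9, 0.19) and Clec2d. Klra2, another Ly49 gene, had log2 ratios of -0.93 in neutrophil-like, -0.21 in monocyte-like and -0.35 in macrophage-like cells, and was not higher in KO in any of these. Below the minimum, Klra4 had 3 WT and 29 KO UMIs (3.72, 2.28 to 6.33, and 2.51 in dendritic-cell-like cells) and Klra3 had 18 and 0, so these Ly49 genes differed beyond counting error in opposite directions (both named after their values were seen). Of the Dectin-1 cluster, 1 of 4 genes with 100 UMIs differed by 2-fold. It was Clec12b, an inhibitory lectin-like receptor whose start lies 0.09 Mb from that of Clec7a. It had 204 UMIs in WT (16.6 CPM) and 19 in KO (2.51), a log2 ratio of -2.70 (-3.49 to -2.04). In neutrophil-like cells, where its level was highest, the ratio was smaller (65.9 and 26.9 CPM, -1.28). Macrophage-like cells had low levels of it (4.55 and 0.502 CPM, -2.83). The neighbours of Clec12b, Olr1 (24.7 and 14.3 CPM, -0.79) and Clec12a (16.5 and 24.3, 0.56), differed less over all cells. The fourth gene, Clec9a, had 8.79 and 8.20 CPM over all cells (-0.10) but 52.5 and 21.2 in dendritic-cell-like cells, a log2 ratio of -1.30. Of the Clec4 genes further along, 1 of 6 differed by 2-fold, namely Clec4e, which encodes Mincle (996.4 and 478.6 CPM, -1.06, -1.11 to -1.004), but within classes its log2 ratio was -0.80 in dendritic-cell-like cells and between -0.30 and -0.44 in the other myeloid classes. Clec4d (1869 and 977.2, -0.94) and Clec4n (886.0 and 664.6, -0.41) were also lower over all cells. Within classes the log2 ratio of Clec4d was -0.14 in neutrophil-like, -0.10 in monocyte-like and -0.0002 in macrophage-like cells. It was -1.02 in dendritic-cell-like cells, where its levels were lower (203.1 and 100.3 CPM, against 5855 and 5302 in neutrophil-like cells). That of Clec4n was 0.26, -0.13, -0.08 and -0.34 in the same order of classes. The mixed cluster, with markers of neutrophils and monocytes, made up 13.1% of WT and 4.35% of KO cells.

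Of a list of 24 other genes on the side of Clec7a towards Hebp1, from Tmem52b to Strap, 18 had 100 UMIs, of which 1 was higher and 1 lower by 2-fold. Gprc5a, which encodes an orphan receptor and starts 5.59 Mb from Clec7a, between Apold1 and Hebp1, had 51.6 CPM in WT and 145.9 in KO (log2 ratio 1.498, 1.36 to 1.64), with 1.29 in macrophage-like, 0.61 in dendritic-cell-like and 0.59 in monocyte-like cells. Eps8, which encodes an actin-capping protein, had 37.2 and 14.7 (-1.34, -1.65 to -1.04), with -1.80 in monocyte-like, -1.66 in macrophage-like and -0.23 in dendritic-cell-like cells. In neutrophil-like cells Eps8 had 13.6 CPM in WT and 0 in KO, where a count of 0 allows up to 6.72 CPM. The log2 ratio of -4.86 there is set by the pseudocount. The genes of this list with most UMIs, Plbd1 (-0.16), Emp1 (0.32) and Arhgdib (-0.23), were within 2-fold over all cells, although Emp1 reached 2.80 in neutrophil-like and 1.17 in dendritic-cell-like cells.

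Within 1 Mb of the start of Clec7a, 13 genes had 100 UMIs and 4 of them differed by 2-fold, namely Klra17 and BC035044 higher and Klrb1b and Clec12b lower in KO. Without the listed genes, which were chosen for differing, 2 of 8 did so, beside 4.16% of all genes with 100 UMIs. BC035044 had 3.66 and 12.6 CPM (1.76, 1.25 to 2.32), but a log2 ratio of 0.48 in dendritic-cell-like cells, where alone it reached 20 UMIs. Within 10 Mb on each side, 13 of 102 genes (12.7%) differed by 2-fold, and 9 of 95 (9.47%) once the listed genes were left out. The share was 6.86% on the rest of chromosome 6 (21 of 306) and 3.95% on other chromosomes (318 of 8058). By the same count within classes, without the listed genes, it was 10.0% within the window, 3.35% on the rest of chromosome 6 and 3.34% elsewhere in macrophage-like cells, and 14.9%, 6.80% and 4.68% in dendritic-cell-like cells. In monocyte-like cells it was 3.75%, 4.29% and 4.07%, in neutrophil-like cells 14.8%, 17.0% and 11.8% and in T-cell-like cells 6.67%, 9.02% and 7.10%, so the window was not above the rest of chromosome 6 there. Over all cells, a window of 5 Mb held 5 such genes of 55 (9.09%), and 3 of 50 (6%) without the listed genes. The share on the rest of the chromosome was 8.22%, but this still included Apold1 and Hebp1, which were chosen for differing. The shares of 6% and 8.22% are therefore not a like comparison. With the listed genes counted, chromosome 6 had the highest share of all chromosomes over all cells (8.33% of 408 genes). The next was chromosome 15 at 6.88%, beside the 6.86% of chromosome 6 outside the window of 10 Mb. Outside the window of 10 Mb these genes included the T-cell receptor genes Trbc1 (1.61) and Trbc2 (1.22) and the immunoglobulin genes Igkv1-110 (9.93) and Igkc (1.07), which mark lymphocytes. Others there were of different kinds, such as Stk38l (1.73), Asprv1 (-1.62) and Prok2 (-1.60). Asprv1 was among the top 10 genes by fold of the mixed cluster, which was 13.1% of WT and 4.35% of KO cells. T-cell-like cells were 2.37% of WT and 5.85% of KO cells, and the part of this makeup in the share was not tested.

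**Figure D4:**
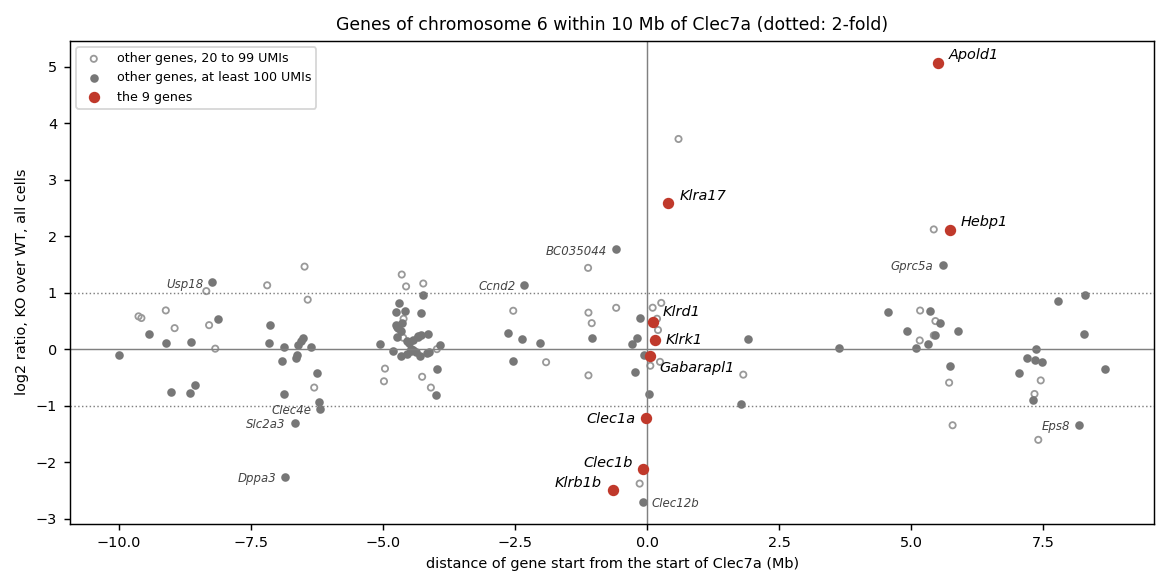
Log2 ratio over all cells, KO over WT, of genes within 10 Mb of Clec7a against the distance of their start from that of Clec7a in Mb (9 listed genes red, other genes grey and open where under 100 UMIs, dotted lines at 2-fold). Genes above and below the dotted lines stand among many between them, and Klra17 (2.58), Apold1 (5.07) and Hebp1 (2.11) are above while Klrb1b (-2.50) and Clec12b (-2.70) are below.

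Across the window, the other genes with the largest log2 ratios were Usp18 (1.18, an interferon-induced deubiquitinase), the cyclin gene Ccnd2 (1.14) and Tapbpl (0.96, a relative of tapasin) on the higher side, and Dppa3 (-2.26, known from germ cells and early embryos) and the glucose transporter gene Slc2a3 (-1.30) on the lower side. Dppa3 had 142 UMIs in WT and 18 in KO, with log2 ratios of -2.08 in macrophage-like and -1.37 in neutrophil-like cells. Ccnd2 passed 2-fold in none of the 5 classes in which it reached 20 UMIs, and Slc2a3 passed it in dendritic-cell-like cells (-1.44) alone.

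Over the 10 points given by 5 classes in 2 libraries, Klrd1 was most like Kit (Pearson r 0.99), Mki67 (0.98) and Stat4 (0.98), and Klrk1 was most like Traf4 (0.98), Klrd1 (0.98) and Birc2 (0.97). Klra17 was most like Glipr1 (0.82), Trappc9 (0.79) and Clip2 (0.76), and Hebp1 most like Vhl (0.90), Tomm6 (0.89) and Baiap2 (0.85). Apold1 was most like Lrp5 (0.82), Mob3b (0.82) and Zranb3 (0.80). The nearest to Klrb1b included Zfyve16 (0.91) and Mpdu1 (0.89), and those to Gabarapl1 included Slc35a3 (0.97) and Arpc5 (0.96). The points share libraries and differ in depth, and a high r over 10 points among 8470 genes is a description only.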

How the data were processed

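Counts of UMIs per gene and barcode were deposited by the authors, unnormalized, as 1 matrix for each of the 2 libraries, made with a microwell 3′ kit per the protocol, although a label names another platform. The submitters' processing notes name Cell Ranger 2.1.1 and mm10, without saying what each was used for. The study's own cell filter was applied (200 to 4000 genes per cell, mitochondrial share up to 5%). Seurat 5.3.0 (R 4.3.3) clustered both libraries together (log-normalization with a scale factor of 10000, 2000 variable features without genes of chromosome 6, the Y chromosome, Xist and Tsix, 20 principal components, resolution 0.8, 16 clusters), and a cluster was named from at least 3 of its type's markers, except those led by proliferation or interferon genes or by more markers of another type (unnamed: 12, 13, 15) or holding markers of 2 types (mixed). Scrublet (scanpy 1.11.5) called 10 of 4695 cells (0.213%), so its call was taken not to work, and no doublets were removed.

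UMIs were summed per library and class and divided by all UMIs of the same cells. Log2 ratios are KO over WT with a pseudocount of 0.5 UMI, with exact conditional 95% intervals. Levels have exact Poisson and shares exact binomial (Clopper-Pearson) intervals. No p-value was computed, since each genotype was 1 library. Gene positions are from GENCODE M21 (31436 of 32285 symbols unchanged) and promoters from RefSeq GRCm38.p6. Scripts (Python 3.11.15, SciPy 1.17.1) were tested on simulated data.

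The 9 genes, the gene lists and the markers were chosen with earlier results of these data known. Named were the 9 genes, list genes with at least 100 UMIs and a 2-fold difference, the 3 with most UMIs per list, and the 5 genes within 10 Mb with the largest log2 ratio each way. Alternatives changed the cell filter, scaling (edgeR 4.0.16 TMM), pseudocount, thinning, clustering, window and minimum.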

Additional observations from a re-analysis of the deposited data

Results flagged for a closer look

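The 771 WT and 1081 KO barcodes that the filter left out were in no comparison above, and Klra17, Apold1 and Hebp1 had a higher level there in the KO library than the WT interval allows. Klra17 had 59.1 CPM in the left-out KO barcodes (251 UMIs) against 7.81 in WT (28 UMIs), a log2 ratio of 2.90 (2.35 to 3.54). Apold1 had 15.3 (65 UMIs) against 0.279 (1 UMI), and Hebp1 151.8 (645 UMIs) against 51.9 (186 UMIs), a log2 ratio of 1.55 (1.31 to 1.79). Klrb1b, lower in KO among the kept cells, was lower there as well, at 9.65 against 38.2 CPM (-1.97, -2.53 to -1.47). These barcodes come from the same 2 libraries, so they are no replicate.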

How the results depend on the processing

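No paired analysis was possible because each genotype was 1 library of pooled mice. Over 355 alternative values of the log2 ratios, 329 stayed within the counting interval and 9 had the opposite sign, 8 of them of ratios within 2-fold (Klrd1, Klrk1, Clec1a and Gabarapl1). The one past 2-fold was Klrb1b in the monocyte-like cluster 0 alone, at 1.91 with 0 WT UMIs and 1 KO UMI. With cells thinned to 1000 UMIs, Klra17 in macrophage-like cells fell to 0.96 and Klrb1b there came to -1.64, and Klrd1 over all cells came to -0.03. Klrk1 over all cells was -0.15 as a mean over cells. TMM scaling lowered all log2 ratios over all cells by 0.15 (Gabarapl1 to -0.26). The count of listed genes past 2-fold became 5 of 7 in neutrophil-like cells with classes by marker level (8.73% of all genes there, 1089 WT and 535 KO cells), against 1, and 1 in T-cell-like cells with a limit of 10% mitochondrial UMIs, against 0. The 13 genes within 10 Mb past 2-fold became 5 in a window of 5 Mb and 27 with at least 20 UMIs, and were 6 within monocyte-like and 3 within T-cell-like cells. Of 36 shares under other thinning, 31 moved beyond their interval, since a share rises with depth. The KO library was shallower, and counts under 20 UMIs in a class gave no 2-fold call.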
